A study of Mus musculus with 2 samples.

Results

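The 4 reticulon genes Rtn1, Rtn2, Rtn3 and Rtn4 and their partners Reep5 and Atl1 encode proteins that give the endoplasmic reticulum (ER) its tubular shape. These 6 genes were chosen by name, and all 6 were found among the 18534 annotated genes with at least 1 read in long-read RNA sequencing of mouse left cerebral cortex. In this assay a complementary DNA molecule is read over most of its length, so that a single read shows which exons were joined. The mice were 18 to 20 months old and of the hybrid B6CASTF1/J, which joins the C57BL/6 background with that of a wild-derived castaneus line. The labels named no genotype beyond the strain and no treatment, and they disagreed on sex: the sex entry was female and a free-text description said male. There was 1 group of 2 libraries, labelled biological replicates 1 and 2, each made from 2 µg of RNA. They carry one and the same donor entry, and no label said that they came from separate animals. The tests below therefore compare the libraries as sequenced and cover counting error only.

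Reticulons insert a pair of hydrophobic hairpins into the outer leaflet of the ER membrane and thereby bend it into tubules. REEP5 belongs to another family of hairpin proteins that act in the same way, and atlastin-1, the product of Atl1, is a GTPase that fuses tubules into a branched network. In neurons these tubules run through axons and dendrites, RTN4 is also known as Nogo, an inhibitor of neurite growth, RTN3 is known as a receptor for ER turnover, and mutations of ATL1 cause hereditary spastic paraplegia.

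Replicate 1 held 774629 reads on annotated genes and replicate 2 held 679147. A gene with 0 reads could have had up to 3.87 CPM in replicate 1 and 4.42 CPM in replicate 2, CPM being a gene's reads for every 1000000 on annotated genes and the limit being that of 3 counts. The libraries stood apart in models antisense to annotated genes, which held 9.80 reads per 100 annotated-gene reads in replicate 1 and 20.6 in replicate 2. Of the markers of cortical excitatory neurons 5 of 5 had at least 10 reads in each library, as had 4 of 4 of astrocytes, 4 of 5 of oligodendrocytes, 2 of 3 of inhibitory neurons and 3 of 4 of microglia. Of 4 striatal markers 2 reached that number. Of 3 choroid plexus markers, Ttr had 18 and 5 reads in replicates 1 and 2, and Folr1 and Otx2 had 0 in each library. The summed level of the excitatory markers was 1388 CPM in replicate 1 and 1190 in replicate 2, and that of the oligodendrocyte markers 2040 and 1826 CPM. Endothelial markers summed to 290 and 205 CPM. Astrocyte markers, the only marker list higher in replicate 2, summed to 3100 and 3398 CPM. Of the markers only Mbp and Cldn5, both lower in replicate 2, passed the exact binomial test described below (adjusted p = 0.0259 and 0.0151). Over all genes tested, 1.99% passed. The part of cell makeup in the levels below was not tested, and in bulk tissue fewer cells of a type and less RNA per cell cannot be told apart.

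The 4 reticulons share their 3′ exons. In the GENCODE M21 annotation of mm10 each gene ends with exons of 208, 139, 70, 47 and 59 nt and a last exon, which encode the hairpin domain, and the genes differ in what is spliced before them. The 208-nt exon is printed for each gene because the forms counted below differ in what is joined upstream of it. Sequences are from the annotated transcripts, 5′ to 3′ on the coding strand, and capitals mark the letters that are the same in all 4 genes.
Rtn1, chr12:72223332-72223539 (minus strand): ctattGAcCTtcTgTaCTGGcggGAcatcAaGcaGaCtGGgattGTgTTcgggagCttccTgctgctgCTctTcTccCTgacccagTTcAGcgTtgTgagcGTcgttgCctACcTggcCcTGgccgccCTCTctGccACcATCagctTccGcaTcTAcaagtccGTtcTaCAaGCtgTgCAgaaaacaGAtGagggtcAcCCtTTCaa
Rtn2, chr7:19293076-19293283 (plus strand): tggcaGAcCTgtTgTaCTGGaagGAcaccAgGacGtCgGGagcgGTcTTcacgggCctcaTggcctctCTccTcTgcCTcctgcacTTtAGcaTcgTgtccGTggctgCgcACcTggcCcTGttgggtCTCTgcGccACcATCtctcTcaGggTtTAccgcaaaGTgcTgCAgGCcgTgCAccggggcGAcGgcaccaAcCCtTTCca
Rtn3, chr19:7434931-7435138 (minus strand): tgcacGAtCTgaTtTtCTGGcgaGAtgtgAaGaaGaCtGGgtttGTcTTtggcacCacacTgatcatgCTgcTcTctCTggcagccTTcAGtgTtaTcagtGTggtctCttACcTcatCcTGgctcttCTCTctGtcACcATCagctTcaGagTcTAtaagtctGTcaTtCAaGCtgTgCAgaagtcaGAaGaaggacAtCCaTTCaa
Rtn4, chr11:29733633-29733840 (plus strand): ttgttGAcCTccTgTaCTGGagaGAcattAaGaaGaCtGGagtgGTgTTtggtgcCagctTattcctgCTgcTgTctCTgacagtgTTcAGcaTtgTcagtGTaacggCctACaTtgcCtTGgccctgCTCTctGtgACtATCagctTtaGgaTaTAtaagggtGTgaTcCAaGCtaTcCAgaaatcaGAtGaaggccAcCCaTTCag
All 4 genes had the same letter at 79 of 208 positions (38.0%). By codon position the share was 42.0% at the first, 55.7% at the second and 15.9% at the third. Rtn1 and Rtn4 were the same at 70.7% of positions, Rtn3 and Rtn4 at 70.2% and Rtn1 and Rtn3 at 68.8%. Rtn2 was the most distant member, with 58.2% against Rtn1, 51.4% against Rtn4 and 49.5% against Rtn3.

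**Figure D1:**
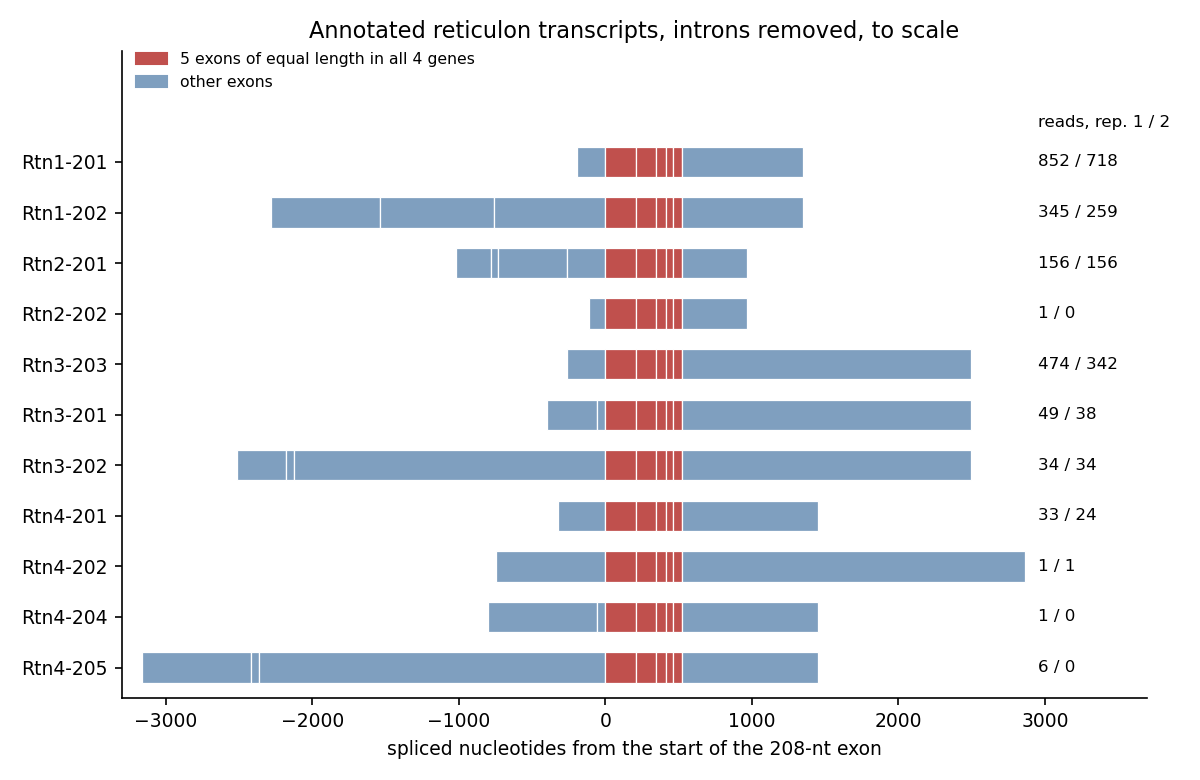
Annotated reticulon transcripts with introns removed, to scale, aligned at the start of the 208-nt exon (horizontal axis, spliced nucleotides). Red blocks are the exons of 208, 139, 70, 47 and 59 nt found in all 4 genes, blue blocks are other exons, and the numbers at the right are reads with that chain of introns in replicates 1 and 2. The forms differ upstream of the red block and in the last exon.

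Reads that spanned this block nearly always held all of its exons. For Rtn1 these were 1314 of 1316 reads in replicate 1 and 1086 of 1088 in replicate 2, both 99.8%. For Rtn3 they were 576 of 580 (99.3%) and 430 of 432 (99.5%). For Rtn2 they were 167 of 169 (98.8%) and 169 of 169, and for Rtn4 44 of 44 and 27 of 27.

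The 6 genes covered a 17.9-fold range of levels, from Rtn1 at the top to Rtn4 at the bottom. A long read was counted once whatever the length of its transcript, so CPM was not divided by length. Rtn1 had 1348 reads in replicate 1 and 1132 in replicate 2, or 1740 and 1667 CPM (1703 ± 51.9 CPM, SD, n = 2), and ranked 35 among all annotated genes by mean CPM. Rtn3 followed with 654 and 498 reads, 844 and 733 CPM (789 ± 78.5 CPM, SD, n = 2, rank 117). Reep5 had 426 and 383 reads, 550 and 564 CPM (557 ± 9.90 CPM, SD, n = 2, rank 209). These genes kept their order in each library, and their counting intervals did not overlap.

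Rtn2 had 180 and 183 reads, 232 and 269 CPM (251 ± 26.2 CPM, SD, n = 2, rank 739). Atl1 had 125 and 88 reads, 161 and 130 CPM (145 ± 22.5 CPM, SD, n = 2, rank 1500). Rtn4 was the lowest with 81 and 58 reads, 105 and 85.4 CPM (94.98 ± 13.6 CPM, SD, n = 2, rank 2480). Atl1 was above Rtn4 in each library. Their 95% counting intervals did not overlap in replicate 1, where that of Atl1 began at 134 CPM and that of Rtn4 ended at 130 CPM, and overlapped in replicate 2, from 104 to 110 CPM. Of all reticulon reads, Rtn1 held 59.6% in replicate 1 and 60.5% in replicate 2, Rtn3 28.9% and 26.6%, Rtn2 7.95% and 9.78%, and Rtn4 3.58% and 3.10%.

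**Figure D2:**
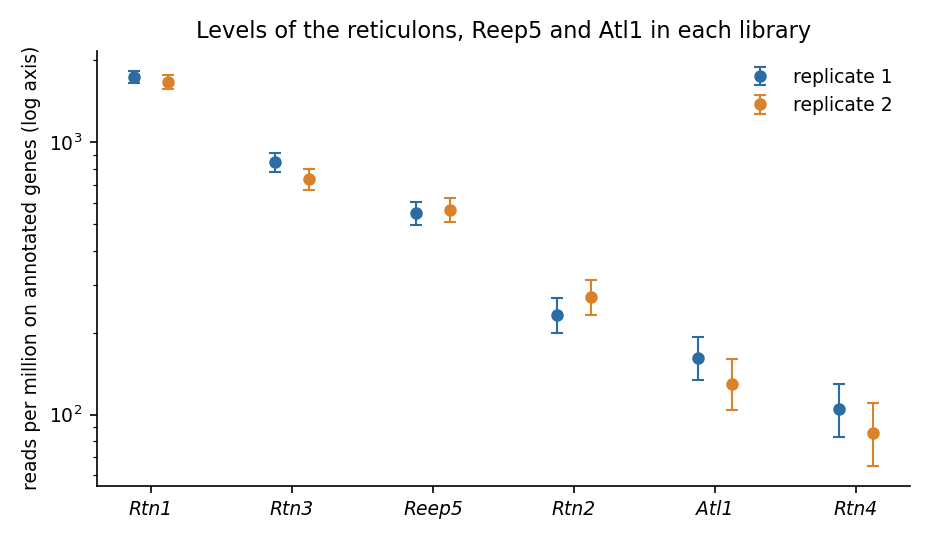
Level of each gene in CPM (log axis) in replicate 1 (blue) and replicate 2 (orange), with exact 95% counting intervals. Genes are ordered by mean level, from Rtn1 at 1703 CPM to Rtn4 at 94.98 CPM, and the libraries lie close together for each gene.

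Between the libraries 0 of 6 members differed past an adjusted p of 0.05, against 1.99% of the 9143 genes tested. The test was a two-sided exact conditional binomial test with Benjamini-Hochberg adjustment over all of these genes. The log2 ratio of replicate 2 over replicate 1, on CPM + 1, was -0.06 for Rtn1 (counting SE 0.06), 0.21 for Rtn2 (SE 0.15), -0.20 for Rtn3 (SE 0.09) and -0.29 for Rtn4 (SE 0.25). It was 0.04 for Reep5 (SE 0.10) and -0.31 for Atl1 (SE 0.20). The members' median was -0.13 and that of all genes tested 0.03. Only Rtn3 had an unadjusted exact p under 0.05 (p = 0.0182, adjusted 0.270), as had 1075 of all genes. With antisense and intergenic reads counted in the library totals, the ratios of Rtn1 and Rtn3 were -0.20 and -0.34, and both passed the exact test (adjusted p = 0.0215 and 0.00462). That scaling put the median of all genes at -0.11 and reduced the share of calls that were higher in replicate 2 from 63.2% to 23.7%.

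Rtn1, the most abundant member, lies at chr12:72211752-72409054 on the minus strand (ENSMUSG00000021087.18). It was read mostly in its short form, which starts at a promoter inside the gene and encodes 208 codons (Rtn1-201), and less often in its long form of 780 codons (Rtn1-202). Of reads whose first exon could be told, 854 began with the short start and 348 with the long start in replicate 1, and 723 and 263 in replicate 2. The short form thus held 71.0% (95% Wilson interval 68.4 to 73.5) and 73.3% (70.5 to 76.0) of them, 72.2 ± 1.61% (SD, n = 2), and the intervals overlapped. The annotated chain of Rtn1-201 itself, which Rtn1-203 shares, had 852 and 718 reads, and that of Rtn1-202 had 345 and 259. The 774-nt second exon of the long form was joined in 345 of 347 and 260 of 261 reads that could show it.

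A further 99 reads in replicate 1 and 82 in replicate 2 held an exon of the long form but showed no first exon of either form. Most of these, 83 and 72, began in the 762-nt exon just before the shared block. Counted as long, they lowered the short share to 65.6% and 67.7%. Rare starts not in the annotation ended at 72408202 (4 and 6 reads) and at 72374204 (3 and 3 reads), and both led into the 9-exon chain of the long form. Among all 4 testable members the share of the most used first exon was called in 0, against 0.0343% of 2916 genes (Fisher's exact test, adjusted p = 1 for Rtn1, Rtn2, Rtn3 and Reep5, no unadjusted p under 0.05). For Rtn1 that share, over all first exons, was 70.5% in replicate 1 and 72.4% in replicate 2.

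The promoters of these starts are shown because the starts divide the reads. They are the 250 bases before the RefSeq start (GRCm38.p6), 5′ to 3′ on the gene's strand, with each CpG in capitals.
Rtn1 short start, chr12:72236728-72236977 (minus strand): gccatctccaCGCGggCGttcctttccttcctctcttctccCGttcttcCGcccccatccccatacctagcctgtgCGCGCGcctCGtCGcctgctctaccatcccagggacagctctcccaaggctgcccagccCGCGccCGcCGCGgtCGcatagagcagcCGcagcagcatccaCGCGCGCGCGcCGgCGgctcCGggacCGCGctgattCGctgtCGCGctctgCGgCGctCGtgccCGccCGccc
Rtn1 long start, chr12:72409055-72409304 (minus strand): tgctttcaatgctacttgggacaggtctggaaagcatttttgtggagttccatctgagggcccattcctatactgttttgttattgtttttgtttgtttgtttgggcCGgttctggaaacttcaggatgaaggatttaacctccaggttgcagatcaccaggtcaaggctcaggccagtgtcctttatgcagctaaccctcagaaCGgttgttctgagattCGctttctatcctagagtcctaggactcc
Rtn4 long start, chr11:29692648-29692897 (plus strand): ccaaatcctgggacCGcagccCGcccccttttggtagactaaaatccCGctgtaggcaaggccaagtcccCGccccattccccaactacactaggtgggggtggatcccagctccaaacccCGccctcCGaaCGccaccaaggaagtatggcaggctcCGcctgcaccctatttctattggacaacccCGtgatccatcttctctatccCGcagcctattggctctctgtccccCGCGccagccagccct
Rtn4 short start, chr11:29718313-29718562 (plus strand): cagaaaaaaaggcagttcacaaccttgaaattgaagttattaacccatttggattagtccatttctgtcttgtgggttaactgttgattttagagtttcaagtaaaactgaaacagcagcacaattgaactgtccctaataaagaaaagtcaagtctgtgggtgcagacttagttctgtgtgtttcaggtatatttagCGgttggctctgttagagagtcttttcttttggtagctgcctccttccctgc
The more used short start of Rtn1 had 35 CpG and 72.4% GC before it, and the long start 3 CpG and 46.0% GC. In Rtn4 the order was the opposite: the more used short start, described below, had 1 CpG and 39.2% GC, and the long start 12 CpG and 61.2% GC. This RefSeq long start, 29692898, lies upstream of 29692947, where the long transcripts counted below begin in GENCODE. A further RefSeq start of Rtn4, at 29693774, is that of Rtn4-203 with 1046 codons. It had 31 CpG and 76.8% GC. The median over 32851 RefSeq promoters was 6 CpG. The Rtn1 short start had more than 97.0% of these, the Rtn4 long start more than 66.5%, the Rtn1 long start more than 29.0% and the Rtn4 short start more than 7.87%. The RefSeq table held 5 of the 6 members with 9 starts, among them Rtn2 with 13 CpG, Rtn3 with 20 and Atl1 with 47, and it had no entry for Reep5. The letters TATAAA, searched on both strands, were in none of the 9 windows and in 12.4% of all, and GGGCGG was in 6 of the 9 and in 32.7% of all.

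**Figure D3:**
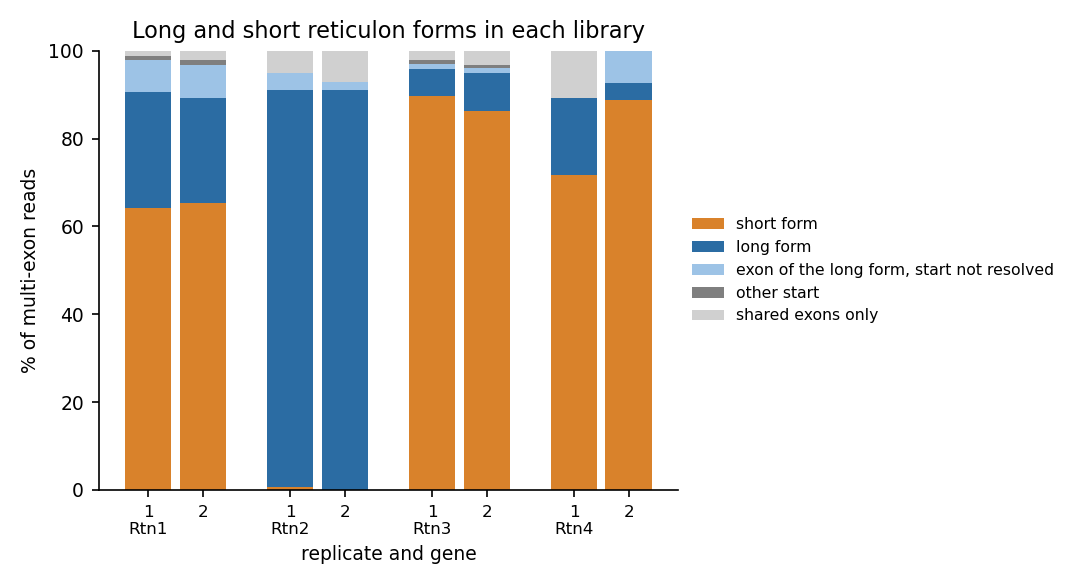
Share of multi-exon reads (vertical axis, percent) by form for each reticulon in replicates 1 and 2. Orange is the short form, dark blue the long form, light blue reads with an exon of the long form but no resolved start, dark grey other starts and light grey reads within the shared exons. Rtn1, Rtn3 and Rtn4 are mostly orange and Rtn2 is nearly all dark blue.

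Rtn2, at chr7:19282624-19296160 on the plus strand (ENSMUSG00000030401.16), was read almost entirely in its long form of 471 codons (Rtn2-201). The long start was found in 163 of 164 resolved reads in replicate 1 (99.4%) and in 165 of 165 in replicate 2. The short form of 204 codons (Rtn2-202) had 1 and 0 reads, against a limit of 3 counts. The full 10-exon chain of Rtn2-201 had 156 and 156 reads, 86.7% and 85.2% of the gene's reads. Reads limited to the shared exons numbered 9 and 13, so a short start with another donor cannot be told from a read that stops early there. Rtn2 was thus the only reticulon of the 4 whose short share lay near 0, while that of the other 3 was at least 71.0% in each library.

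Rtn3, at chr19:7425901-7483281 on the minus strand (ENSMUSG00000024758.15), makes its forms by splicing and not by a second annotated start. All 5 of its annotated transcripts share the donor of the first exon, which 564 of 569 resolved reads used in replicate 1 (99.1%) and 424 of 425 in replicate 2 (99.8%). Reads that joined this exon to the shared block without the large 2124-nt exon, which adds most of the coding length of the long form, numbered 528 in replicate 1 and 384 in replicate 2. Reads with that exon, or with a 1161-nt version of it in 2 and 1 reads, numbered 36 and 38. The short share was 93.6% (95% Wilson interval 91.3 to 95.4) and 91.0% (87.9 to 93.4), 92.3 ± 1.85% (SD, n = 2), and the intervals overlapped. Rtn3-203, the shortest form with 237 codons, had 474 and 342 reads. Rtn3-201 with 256 codons had 49 and 38, and Rtn3-202 with 964 codons had 34 and 34.

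A 57-nt coding exon separates Rtn3-201 from Rtn3-203, and Rtn4 has an exon of the same length at the same place, before its own large exon. Both are printed to show how far they are alike, with capitals for letters that are the same in both.
Rtn3, chr19:7467811-7467867 (minus strand): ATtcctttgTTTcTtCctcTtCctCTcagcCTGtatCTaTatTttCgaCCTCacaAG
Rtn4, chr11:29705535-29705591 (plus strand): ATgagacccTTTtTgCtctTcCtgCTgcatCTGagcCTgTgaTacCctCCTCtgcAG
They had the same letter at 25 of 57 positions (43.9%), below the 70.2% of the 208-nt exon of these genes.

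The 2124-nt exon of Rtn3 was nearly always preceded by the 57-nt exon, while most reads with the 57-nt exon lacked the 2124-nt exon. Where a read lacked the 2124-nt exon, the 57-nt exon was present in 49 of 527 reads in replicate 1 (9.30%) and 39 of 383 in replicate 2 (10.2%). Where a read held the 2124-nt exon, the 57-nt exon was before it in 34 of 34 and 36 of 37. Conversely, the 2124-nt exon followed the 57-nt exon in 35 of 84 reads (41.7%) and 35 of 74 (47.3%), and followed the first exon directly in 0 of 478 and 1 of 345. The form with the 2124-nt exon alone, Rtn3-204, was therefore at or under the limit of 3 counts. A 1161-nt version of the large exon, as in Rtn3-205, had 2 and 1 reads after the 57-nt exon. Between the libraries 0 of these Rtn3 events was called, against 0.0658% of 1519 cassette exons (Fisher's exact test, p = 0.652 for the 57-nt exon and 0.523 for the 2124-nt exon, both adjusted p = 1).

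**Figure D4:**
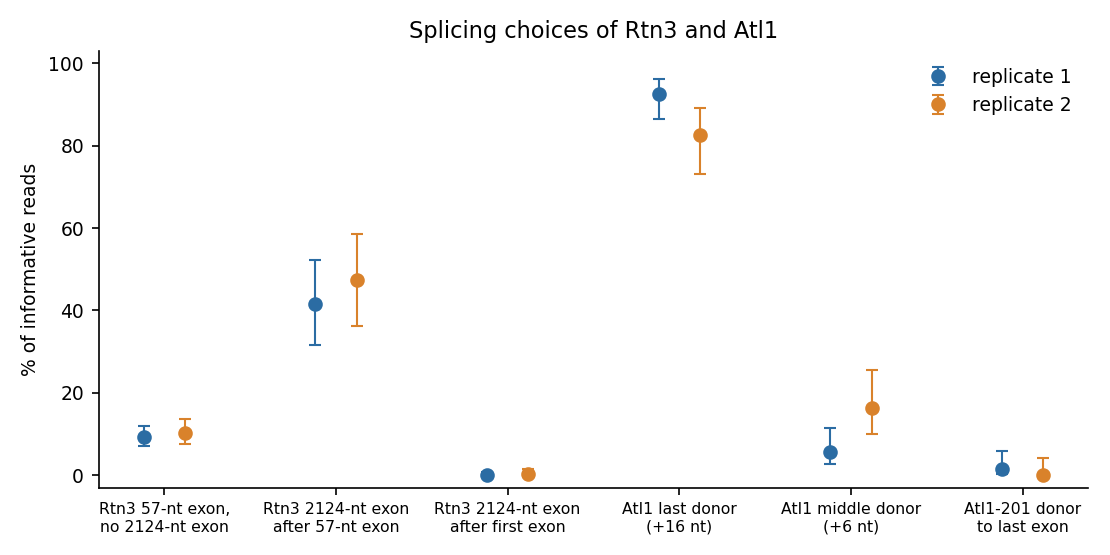
Share of informative reads (vertical axis, percent) for splicing choices of Rtn3 and Atl1 in replicate 1 (blue) and replicate 2 (orange), with 95% Wilson intervals. The Rtn3 2124-nt exon followed the 57-nt exon in 41.7% and 47.3% of reads and followed the first exon in 0 of 478 and 1 of 345, and the last of the Atl1 donors held 92.6% and 82.6%.

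Rtn4, the gene of Nogo, lies at chr11:29692947-29744331 on the plus strand (ENSMUSG00000020458.16), and few of its reads could show a form. The short form with a start of its own, Rtn4-201 of 199 codons (Nogo-C), had 33 reads in replicate 1 and 24 in replicate 2. The long start had 8 and 1. The short share of 80.5% (95% Wilson interval 66.0 to 89.8) and 96.0% (80.5 to 99.3) rested on 41 and 25 reads, and the intervals overlapped. Reads of the long start were spread over Rtn4-205, the form of 1162 codons that encodes Nogo-A (6 and 0 reads), Rtn4-202 of 356 codons (1 and 1 reads) and Rtn4-204 of 375 codons (1 and 0 reads). In replicate 2 a further 2 reads began inside an exon of the long form, which put the short share there at 88.9%. In replicate 1 a further 5 reads held shared exons only. Counted as long, they lowered the short share there to 71.7%.

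Single-exon reads took 35 of 81 Rtn4 reads in replicate 1 (43.2%) and 31 of 58 in replicate 2 (53.4%). The models of 35 and 30 of them, as deposited, lay within the 930-nt last exon of Rtn4-201, so these reads show no form. The pooled single-exon share of 47.5% was above that of 91.5% of 5809 genes with at least 50 reads, whose median was 4.72%. Counting only multi-exon models lowered the mean level of Rtn4 from 94.98 to 56.9 CPM.

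The long mRNAs of Rtn1, Rtn3 and Rtn4 are among the longer models of these libraries. That of Rtn2, Rtn2-201, has 1990 nt and is shorter than theirs. Over all annotated-gene reads the median model length was 2127 nt in replicate 1 and 2184 nt in replicate 2. Rtn1-202 has 3629 nt, and models at least as long held 16.4% of annotated-gene reads in replicate 1 and 18.4% in replicate 2. For Rtn4-205, of 4618 nt, the shares were 6.23% and 7.46%, and for Rtn3-202, of 5013 nt, 4.31% and 5.26%. The short forms Rtn1-201 (1544 nt), Rtn4-201 (1773 nt) and Rtn3-203 (2762 nt) lie where models of that length or more held 71.6%, 64.0% and 32.4% in replicate 1. The part of transcript length in the balance of long and short forms was not tested.

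Reep5, at chr18:34344885-34374070 on the minus strand (ENSMUSG00000005873.6), was read mostly as 1 transcript. The 5-exon chain of Reep5-201, which encodes 189 codons, had 378 of 426 reads in replicate 1 (88.7%) and 351 of 383 in replicate 2 (91.6%). Its first exon was used by 384 of 395 resolved reads (97.2%) and 352 of 359 (98.1%). Unannotated first exons ended at 34372799, with 6 and 5 reads, and at 34372931, with 4 and 2 reads. The 139-nt exon was included in 391 of 395 reads and 359 of 360. Unresolved starts made up 0.920% of its multi-exon reads over both libraries, fewer than in Rtn3 (3.87%), Rtn2 (8.86%) and Rtn1 (9.12%).

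Atl1 lies at chr12:69892614-69966417 on the plus strand (ENSMUSG00000021066.9), and most of its reads departed from the annotated coding transcript of full length at both ends. That transcript, Atl1-201 with 15 exons and 558 codons, had 0 reads as a complete chain in either library. This allows up to 3 counts of 125 and of 88. The leading chain had 13 exons, with 88 of 125 reads in replicate 1 (70.4%) and 47 of 88 in replicate 2 (53.4%). Its share differed with an exact p of 0.0141 by Fisher's test and an adjusted p of 0.522. In that family 0 of 6 members were called, against 0.168% of 5961 genes, and the adjusted p of the other 5 was 0.947 to 1. With annotated transcripts alone the mean level of Atl1 was 3.81 CPM instead of 145.

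At the 5′ end, 95 and 63 reads had their first splice donor just after 69907992, and 15 and 12 used the annotated first exon of Atl1-201, which ends at 69893344. The deposited models of the 95 and 63 reads began at 69907732, where the annotation puts the start of Atl1-205, a transcript annotated only in part. That first exon of 261 nt begins 73 nt before exon 2 of Atl1-201 and ends at the same donor, so the chain of introns cannot tell a start there from a read cut short within exon 2. Both contain the annotated start codon, at 69907959. Reads of this kind put the unresolved share of Atl1 at 86.0% and 82.6% of multi-exon reads, 84.5% over both libraries, above 93.7% of 5021 genes with a median of 7.77%.

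**Figure D5:**
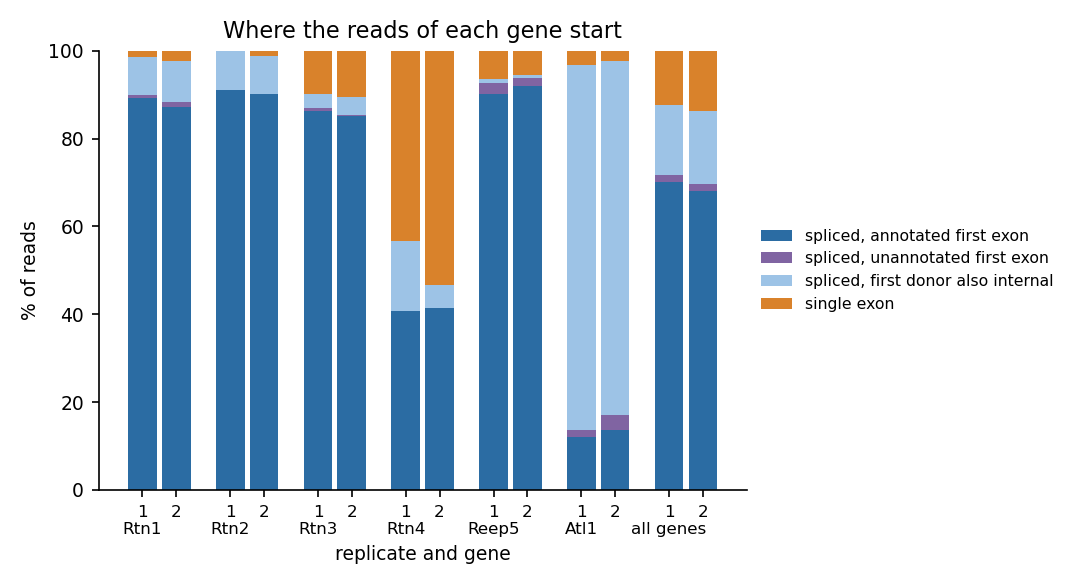
Reads of each gene (vertical axis, percent of its reads) by how they start in replicates 1 and 2, with all annotated genes at the right. Dark blue is spliced with an annotated first exon, purple with an unannotated one, light blue with a first donor that is also internal to a longer transcript, and orange is a single exon. Atl1 stands out in light blue and Rtn4 in orange.

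At the 3′ end, Atl1 reads seldom used the junctions of Atl1-201. The last 30 nt of the last-but-one exon are shown, chr12:69959459-69959488 on the plus strand, with capitals for the 16 nt beyond the donor of Atl1-201.
Atl1: ctttgtgggaccagGTGAGAGTACCTTCAG
The exon ran through these 16 nt, to 69959488, in 112 of 121 reads that entered the last exon in replicate 1 (92.6%, 95% Wilson interval 86.5 to 96.0) and in 71 of 86 in replicate 2 (82.6%, 73.2 to 89.1). This donor is annotated in Atl1-202 and Atl1-203, both of them retained-intron transcripts with no annotated coding sequence. A donor 6 nt beyond that of Atl1-201, at 69959478 and in no annotated transcript, was used by 7 reads (5.79%) and 14 reads (16.3%). The donor of Atl1-201 led straight to the last exon in 2 and 0 reads, and the 15-nt exon of Atl1-201 was joined to it in 0 and 1 reads.

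Read from the annotated start codon, the 16-nt extension gives an open frame of 560 codons, and the last 43 of them lie after the Atl1-201 donor in a frame that differs from that of Atl1-201 in the last exon. The 6-nt extension keeps the frame of Atl1-201 and gives 555 codons, and the donor of Atl1-201 joined straight to the last exon gives 553. Other Atl1 exons varied little: the 105-nt and 93-nt exons were included in 112 of 114 and 116 of 116 reads in replicate 1 and in 79 of 79 and 82 of 84 in replicate 2. Chains that used the annotated first exon and the 16-nt extension through all 14 exons had 11 and 11 reads, so this 3′ end occurred with the annotated start as well.

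Other genes of ER shape were compared as a group. The 34 symbols listed included alternative names, such as Nogo for the member Rtn4. Of these symbols 28 were in the annotation, and 22 had enough reads for the exact test of levels. None of the 22 was called, 4 had an unadjusted p under 0.05 (all lower in replicate 2), and the median log2 ratio was -0.17. Over all 9143 genes tested, 1.99% were called, 1075 had an unadjusted p under 0.05 and the median was 0.03. The highest were Arl6ip1, a hairpin protein of ER tubules, with 387 and 339 reads (500 and 499 CPM), and Vapa, which tethers the ER to other organelles, with 392 and 323 reads (506 and 476 CPM). Retreg2, a receptor for ER turnover with a reticulon domain, had 239 and 176 reads (309 and 259 CPM), and Sec62, of the protein translocation channel, had 233 and 195 (301 and 287 CPM). Tested genes of the list spanned 20.7 to 506 CPM in replicate 1 and 5.89 to 499 in replicate 2. Rtn1, Rtn3 and Reep5 thus lay above all 22 in each library.

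Receptors and partners of the reticulons were all lower than Rtn1 and Rtn3. All 13 listed genes were in the annotation and 9 were tested, of which 0 were called by the exact test, 4 had an unadjusted p under 0.05 (3 higher and 1 lower in replicate 2), and the median log2 ratio was 0.23, to be read against the same 1.99% called, 1075 of 9143 unadjusted and median of 0.03. Lingo1, a co-receptor for Nogo, led with 189 and 194 reads (244 and 286 CPM). Rtn4rl2 and Rtn4rl1, relatives of the Nogo receptor, had 96 and 110 reads (124 and 162 CPM) and 67 and 88 reads (86.5 and 130 CPM). Bace1, the beta-secretase that reticulons bind, had 77 and 93 reads (99.4 and 137 CPM). Ngfr, another co-receptor, had 0 reads in both libraries, which allows up to 3.87 and 4.42 CPM.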

How the data were processed

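Both libraries were analysed from the tables that the authors deposited, which hold whole long-read counts per transcript model, with an annotation of the exons of each model. The annotation names TALON as its source, and the deposited notes name mm10 and GENCODE M21. The aligner, its version and the read orientation: not given in the sources used here. All 24519 annotated models checked had the introns of GENCODE M21.

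Spike-in models were left out. Gene counts are sums over all models of an annotated gene, and CPM is relative to 774629 and 679147 such reads. Models were matched between libraries by their introns, since several deposited model ends fall exactly on annotated exon ends and were not taken as read ends. A read whose first donor is also internal to an annotated transcript was left as unresolved. The Rtn4 long start, whose donor is of this kind, was the exception. Its reads counted as long among the forms and as unresolved elsewhere. Levels were tested at 20 or more reads in total by an exact binomial test, and shares at 20 or more reads in each library by Fisher's exact test, two-sided, each adjusted by Benjamini-Hochberg over the whole table (threshold 0.05). With 1 group, no model of conditions could be fitted. Shares carry 95% Wilson intervals. Cassette exons tested had 5% to 95% inclusion. Intervals cover counting error only, and PCR copies cannot be told from separate molecules. The scripts were tested on simulated data. Scaling alternatives used edgeR 4.0.16 (TMM) and DESeq2 1.42.0 (size factors) in R 4.3.3; the rest used Python 3.11.15 and SciPy 1.17.1.

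Named were, for each member, annotated transcripts with at least 5% of its reads, recurrent unannotated chains, first exons with at least 3 reads and cassette exons with at least 10, and for each gene list up to 4 genes by mean CPM and every called gene, not all of which are printed. The members and lists were chosen with earlier results of these data known.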

Additional observations from a re-analysis of the deposited data

Results flagged for a closer look

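Models on the strand opposite to the members were not part of any comparison above, and some held reads. Over Rtn1 they held 12 reads in replicate 1 and 41 in replicate 2, and over Rtn3 18 and 72. Over Rtn4 they held 16 and 21, and over Reep5 5 and 7. Rtn2 and Atl1 had 0 in both libraries, which allows up to 3 counts. Each of the 4 genes with such reads had more in replicate 2, the library with the larger antisense total (139872 reads against 75937). Relative to the gene's own reads, antisense reads numbered 19.8 per 100 for Rtn4 in replicate 1 and 36.2 in replicate 2, 2.75 and 14.5 for Rtn3, 0.890 and 3.62 for Rtn1, and 1.17 and 1.83 for Reep5. Nearly all were single-exon models: multi-exon models held 1 read over Rtn3 in replicate 1 and 1 over Rtn4 in replicate 2. No control library was available to set a background, and the source of these reads was not tested.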

How the results depend on the processing

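No member that could be tested was called in any family under any alternative run except one. With antisense and intergenic reads in the library totals, 2 members were called in the level test (Rtn1 and Rtn3). In that run 325 genes were called instead of 182, and Reep5 turned from 0.04 to -0.10. The genes called were 55 with annotated transcripts alone and 78 with multi-exon models alone. Annotated transcripts alone left Atl1 out of the level test and Rtn3 and Reep5 out of the first-exon test. They also left Atl1 and Reep5 out of the major-transcript test. For first exons, 2 genes were called instead of 1 at 10 reads and also without incomplete splice matches and genomic models. For major transcripts, 1 gene instead of 10 was called with annotated transcripts alone, where fewer models enter, and the difference of Rtn2 turned from -1.42 to 0.637 points. For cassette exons, 0 instead of 1 were called at 10 reads and with annotated transcripts alone, and 5 without incomplete splice matches and genomic models. The mean short share of Rtn1 fell from 72.2% to 65.5% with all unresolved reads counted as long, and to 66.7% with those holding a long exon, an alternative chosen after seeing the data. That of Rtn3 fell from 92.3% to 88.6% with all unresolved reads counted as long, and that of Rtn4 from 88.2% to 80.3%. Leaving out either library gave short shares of 71.0% to 73.3% for Rtn1, 91.0% to 93.6% for Rtn3, 80.5% to 96.0% for Rtn4 and 0% to 0.610% for Rtn2. The cause of changes beyond those built into a setting was not tested. No paired analysis was possible because there was 1 group. Depth limits Rtn4 and Atl1 most, with 58 to 125 reads in a library.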
